A study of Saccharomyces cerevisiae with 4 samples.

Results

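The genes described here build the entry route of proteins into the endoplasmic reticulum (ER) of Saccharomyces cerevisiae, fold them there and dispose of the failures. The list names 41 genes: the Sec61 and Ssh1 channels, the Sec63 complex, the signal recognition particle (SRP) and its receptor, signal peptidase, luminal chaperones, oxidoreductases, glycan-trimming enzymes, the unfolded protein response and ER-associated degradation. Members were found by gene symbol in the platform annotation, and all 41 of the 5539 named genes of the array were present with 2 neighbouring spots each. Of the 41, 39 gave a ratio on all 4 arrays, EUG1 on 3 and HRD1 on 1.

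A secretory protein reaches the ER either during translation, when SRP binds its signal sequence and docks at the SRP receptor, or after translation through the Sec63 complex. Both routes end at a Sec61-type channel, signal peptidase removes the signal, and chaperones, disulfide-forming enzymes and sugar-trimming enzymes assist folding. When unfolded proteins build up, the sensor Ire1 splices the HAC1 mRNA, whose product is a transcription factor for many of these genes. The mannoproteins of the yeast cell wall pass through this route.

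The RNA came from an slt2 deletion strain in the BY4741 background, grown in rich YEPD medium at 24 °C. SLT2 encodes the last kinase of the cell wall integrity pathway, and it was missing from treated and untreated cells alike, so no comparison with cells that have SLT2 was made here. A culture was split, and one of the parts received Congo red, a chitin-binding dye that disturbs wall assembly, at 30 µg/ml. Cells of both were harvested after 4 h. Each of the 4 arrays held treated and untreated RNA in its 2 channels, with the treated RNA in channel 2 on arrays 1 and 3 and in channel 1 on arrays 2 and 4. The labels do not say whether the arrays came from separate cultures, so every p-value reflects only how far these arrays differ among themselves, and that spread may be technical.

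Values are log2 ratios of treated over untreated RNA, each array centred on its own median and arrays 2 and 4 turned in sign. Spot values of opposite channel order correlated at r between -0.38 and -0.19 before turning, and those of the same order at 0.27 and 0.31. The direction is likely only, because the sources used here do not name the numerator channel. The labels' use of the untreated RNA as control does not settle it, because that RNA changed channel between arrays. Channel 2 was taken as the numerator on every array, and if channel 1 was, all signs below reverse together. A deposit in which treated RNA was always the numerator would make the turned values a measure of channel order. Between 84.1% and 90.9% of the 12800 spots of an array gave a ratio. Both spots of a listed gene lay within 1 log2 unit in 31 of 35, 39 of 40, 39 of 40 and 36 of 38 pairs on arrays 1 to 4. The spots for SLT2 itself, deleted in both channels, stood at 1.48, -1.29, -1.51 and -1.14, and such values show how far ratios of a missing transcript can lie from 0.

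**Figure D1:**
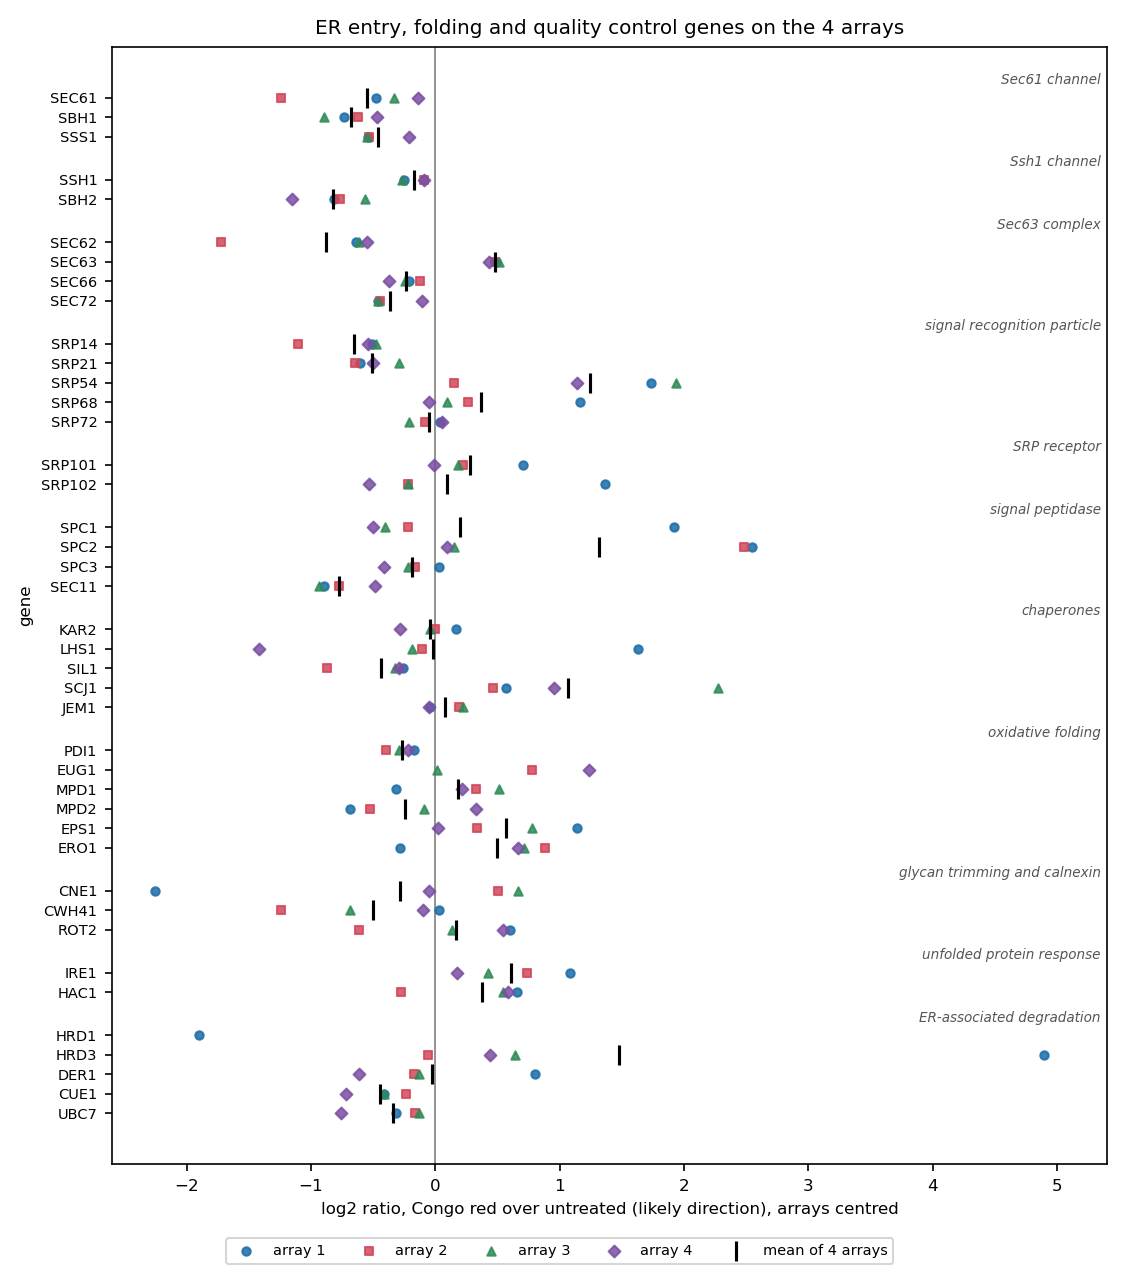
Log2 ratios (horizontal axis) of the 41 listed genes (rows, grouped by role) on each of the 4 arrays (coloured points), with the mean of 4 arrays as a black bar where all were measured. The Sec61 and Ssh1 channel genes lie left of 0 on every array, SEC63 lies at 0.43 to 0.51 on all 4, and HRD3 spans the widest range, from -0.057 on array 2 to 4.89 on array 1.

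SBH1, SSS1 and SBH2, for small subunits of translocation channels, and SEC11, for the catalytic subunit of signal peptidase, were below 0 on all arrays. As averages of their spots, SEC63 and IRE1 were above 0 on all arrays. KAR2 and PDI1, for the Hsp70 and the disulfide isomerase of the ER, gave means of -0.041 and -0.27. In the test of all 4481 genes measured on 4 arrays, 0 of the 39 genes passed (limma, adjusted p under 0.05), where 0% of all genes passed. In that test 14 of the 39 had an unadjusted p under 0.05, or 35.9%, against 27.5% of all genes. On 4 of 4 arrays 15 of the 39 were below 0, or 38.5%, against 21.3% of all genes, and 6 were above 0 on 4 of 4 arrays, where the share of all genes was 20.4%. The median of the 39 means was -0.054, and that of all genes 0.022.

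A second test kept only genes whose spots agreed within 1 log2 unit on each array, a filter chosen in earlier work on these data after its calls had been seen. It left 28 of the 41 genes. Of the 28, 9 passed, where 16.8% of its 2804 genes passed: 7 were lower (background 11.5%) and 2 higher (background 5.31%). The lower genes were SBH1, SSS1, SBH2, SEC62, SRP14, SRP21 and SEC11, and the higher ones SEC63 and IRE1. The calls moved with the arrays used: 4 of 34 listed genes passed without array 1, where 9.49% of all genes passed, 3 of 28 without array 2 (7.51% of all genes), and 0 of 29 without array 3 or of 30 without array 4, where 0% of all genes passed. An unadjusted p under 0.05 (limma) was found for 16, 13, 13 and 15 of these listed genes without arrays 1 to 4 in turn, where 32%, 28.2%, 25.2% and 29.9% of all genes had one. Without centring 0 of 28 passed and 5 had an unadjusted p under 0.05, where 2.1% and 12.6% of all genes did. A further test used all 39 genes and kept the spots apart with an estimated correlation of 0.72 between them. The spots of a gene on an array repeat the same hybridisation, and a single correlation served all genes. Where the spots of a gene are more alike than that, its p-value in this test can be too small. It called 9, where 12.7% of all genes passed, with 8 lower (background 9.09%) and 1 higher (background 3.64%): SBH1, SBH2, SEC11, SRP21, SSS1, SEC62, CUE1 and SEC72, and SEC63. SRP14 and IRE1, which passed with the spot filter, did not pass there (adjusted p = 0.068 and 0.13). A gene is said to have risen or fallen where it passed the test with the spot filter, unless another test is named, and adjusted p-values are from limma over all genes tested.

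The subunits of the Sec61 channel were below 0 on every array. SEC61, the pore-forming subunit, gave -0.48, -1.24, -0.33 and -0.14 on arrays 1 to 4, with array 2 far below the rest. Its mean of -0.55 ± 0.48 (SD, n = 4) did not pass with the spot filter (adjusted p = 0.084) or in the test of genes on 4 arrays (adjusted p = 0.19). SBH1, the beta subunit, gave -0.74, -0.62, -0.89 and -0.47, close together. It fell to a mean of -0.68 ± 0.18, or 0.625-fold (adjusted p = 0.0173). SSS1, the gamma subunit that serves both channels, gave -0.54, -0.53, -0.55 and -0.21, with array 4 nearer 0. Its mean was -0.46 ± 0.16, and it also fell (adjusted p = 0.0451).

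The Ssh1 channel, a relative of Sec61 used for entry during translation, had an uneven pair. SBH2, its beta subunit and the paralog of SBH1, gave -0.81, -0.77, -0.56 and -1.15, all well below 0. It fell to -0.82 ± 0.24, or 0.565-fold (adjusted p = 0.0137), the smallest adjusted p among the listed genes in this test. SSH1 itself stood at -0.25, -0.088, -0.27 and -0.092, and its mean of -0.17 ± 0.098 did not pass (adjusted p = 0.33). SBH1 and SBH2 are related genes, and how far their spots cross-hybridise was not analysed here. SBH1 minus SBH2 ranged from -0.33 to 0.68 over the arrays, so neither was lower on all of them.

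The Sec63 complex, which serves entry after translation, held genes on both sides of 0. SEC63 carries the J domain that recruits Kar2 to the channel. It gave 0.48, 0.48, 0.51 and 0.43 on arrays 1 to 4, the tightest of the listed genes. These are averages of its spots, which read 0.70 and 0.31 on array 3 and 0.53 and 0.34 on array 4. On those arrays the spots lay further apart than the array averages did, and on arrays 1 and 2 they lay closer. It rose to 0.48 ± 0.031, or 1.39-fold (adjusted p = 0.0329). SEC62, another essential subunit, gave -0.64, -1.73, -0.62 and -0.55, with array 2 far lower than the others. It fell to -0.88 ± 0.56, or 0.543-fold (adjusted p = 0.0296). SEC63 exceeded SEC62 by 1.12, 2.21, 1.13 and 0.98 log2 units on the 4 arrays. An exact sign-flip test on 4 arrays cannot give a p below 0.125, so no p is attached to this difference. The non-essential subunits SEC66 (-0.24 ± 0.10) and SEC72 (-0.37 ± 0.18) were below 0 on 4 of 4 arrays. Neither passed with the spot filter (adjusted p = 0.20 and 0.086), and SEC72 passed with spots kept apart (adjusted p = 0.0494).

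Among SRP genes, the small subunits SRP14 and SRP21 fell, and the signal-binding subunit gave high but scattered ratios. SRP14 gave -0.51, -1.10, -0.47 and -0.54, again with array 2 apart. It fell to -0.66 ± 0.30 (0.634-fold, adjusted p = 0.0271), and it did not pass with spots kept apart (adjusted p = 0.068). SRP21, the other small subunit, gave -0.60, -0.65, -0.29 and -0.50 and fell to -0.51 ± 0.16 (0.702-fold, adjusted p = 0.0332). SRP54, the GTPase that binds signal sequences, gave 1.73, 0.15, 1.94 and 1.14. All 4 values were above 0, but they spanned 1.78 log2 units, and on array 3 its spots read 1.29 and 2.58, so it failed the spot filter. Its mean of 1.24 ± 0.80 did not pass in the test of genes on 4 arrays (adjusted p = 0.11). SRP68 (0.37 ± 0.54) and SRP72 (-0.054 ± 0.12), which form the core of the particle, did not pass. The genes for the alpha subunit of the SRP receptor (locus YDR292C, 0.28 ± 0.30) and for its beta subunit (locus YKL154W, 0.097 ± 0.86) did not pass either. The beta subunit gene read 1.37 on array 1 against -0.54 to -0.22 on the others.

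Signal peptidase was split as well. SEC11, its catalytic subunit, gave -0.89, -0.77, -0.94 and -0.48, all below 0. It fell to -0.77 ± 0.20, or 0.586-fold (adjusted p = 0.0141). SPC2, an accessory subunit, gave 2.55, 2.48, 0.15 and 0.090, high on arrays 1 and 2 and near 0 on arrays 3 and 4. On array 1 only 1 of its spots was measured, and on array 2 the pair read 1.29 and 3.67. It failed the spot filter, and its mean of 1.32 ± 1.38 did not pass in the test of genes on 4 arrays (adjusted p = 0.20). SPC3, an essential subunit, stood at -0.19 ± 0.18, and SPC1 at 0.20 ± 1.15, with 1.92 on array 1 against -0.50 to -0.22 on arrays 2 to 4. Neither passed.

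None of the chaperone genes passed. KAR2, the ER Hsp70 and a classical target of the unfolded protein response, gave 0.17, 0.00099, -0.042 and -0.29. Its mean of -0.041 ± 0.19 had a 95% interval from -0.34 to 0.26 (limma with the spot filter, adjusted p = 0.85). Changes inside that interval were not resolvable with 4 arrays. SIL1, a nucleotide exchange factor of Kar2, gave -0.26, -0.87, -0.33 and -0.29 and did not pass at -0.44 ± 0.29 (adjusted p = 0.0782). LHS1, an Hsp70 relative with the same exchange activity, ranged from -1.41 on array 4 to 1.63 on array 1. SCJ1, a J-domain partner of Kar2, gave 0.57, 0.46, 2.28 and 0.95, all above 0 with array 3 apart. Only 1 of its spots was measured on arrays 1 and 4, and its mean of 1.06 ± 0.83 did not pass in the test of genes on 4 arrays (adjusted p = 0.14). JEM1, another J-domain partner, stood at 0.080 ± 0.15.

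The oxidative folding genes did not move together. PDI1, protein disulfide isomerase, gave -0.17, -0.40, -0.30 and -0.22, a narrow range below 0. Its mean of -0.27 ± 0.098 had a 95% interval from -0.55 to 0.0062 and did not pass (limma with the spot filter, adjusted p = 0.15). EPS1, a membrane-bound relative of Pdi1, gave 1.14, 0.33, 0.78 and 0.019. It was above 0 on 4 of 4 arrays, and its mean of 0.57 ± 0.49 did not pass (adjusted p = 0.0782). ERO1, which supplies oxidising equivalents to Pdi1, gave -0.28, 0.88, 0.71 and 0.66, with array 1 on the other side of 0, and averaged 0.49 ± 0.52. It failed the spot filter and did not pass in the test of genes on 4 arrays (adjusted p = 0.24). MPD1 (0.18 ± 0.36) and MPD2 (-0.25 ± 0.46), further members of the family, had arrays on both sides of 0. EUG1, a non-essential Pdi1 relative, read 0.77, 0.0098 and 1.23 on arrays 2 to 4 and was not tested with genes on 4 arrays.

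The sugar-trimming genes had arrays on both sides of 0. CWH41, glucosidase I, gave 0.025, -1.24, -0.68 and -0.10 (mean -0.50 ± 0.58). ROT2, the catalytic subunit of glucosidase II, gave 0.60, -0.61, 0.14 and 0.54 (mean 0.17 ± 0.56). In both genes array 2 was the lowest. CNE1, the yeast calnexin relative, gave -2.25, 0.50, 0.67 and -0.050, so that array 1 alone set the sign of its mean of -0.28 ± 1.35. It was 0.37 without array 1.

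The unfolded protein response genes stood above 0 on average. IRE1, the sensor, gave 1.08, 0.74, 0.42 and 0.18 as averages of its spots, all above 0 but over a wide range. On array 4 its spots lay on both sides of 0, at 0.43 and -0.072. It rose to 0.61 ± 0.39, or 1.52-fold (adjusted p = 0.0451), and it did not pass with spots kept apart (adjusted p = 0.13). HAC1, the transcription factor gene, gave 0.66, -0.28, 0.54 and 0.58, with only array 2 below 0. Its mean of 0.38 ± 0.44 did not pass (adjusted p = 0.17). The spots were not examined for whether they tell spliced from unspliced HAC1 mRNA.

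The degradation genes held a pair of partners with means below 0. CUE1, the membrane anchor of the ubiquitin-conjugating enzyme Ubc7, gave -0.41, -0.24, -0.42 and -0.72, and UBC7 itself -0.31, -0.17, -0.13 and -0.76. As averages of their spots, both genes were below 0 on 4 of 4 arrays and lowest on array 4. On array 1 the spots of UBC7 lay on both sides of 0, at -0.81 and 0.19. CUE1, at -0.45 ± 0.20, missed the threshold with the spot filter (adjusted p = 0.0536) and passed with spots kept apart (adjusted p = 0.0249). UBC7, at -0.34 ± 0.29, failed the filter because its spots on array 1 lay only just over 1 log2 unit apart. It did not pass in the test of genes on 4 arrays (adjusted p = 0.23). HRD3, partner of the ubiquitin ligase Hrd1, gave 4.89, -0.057, 0.64 and 0.44, and the value on array 1 came from a single spot. DER1, a component of the retrotranslocation channel, ranged from -0.61 on array 4 to 0.80 on array 1. HRD1 was measured on array 1 alone, where its spots read -2.73 and -1.08.

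The order of the spots in the deposited data moved with several of these values. Coordinates on the array were not used. The spots were divided by their order into 32 runs of 400, and the median ratio of a run lay between -0.43 and 0.43 on arrays 1, 3 and 4 but reached -1.33 on array 2. Its lowest runs there were the last, with SEC62 and CWH41 (-1.33), the next to last, with SEC61 and SIL1 (-0.91), and the run of SRP14 and ROT2 (-0.88). The run of HAC1 and SRP21 had a median of -0.53. All 8 of these genes had their lowest value on array 2.

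**Figure D2:**
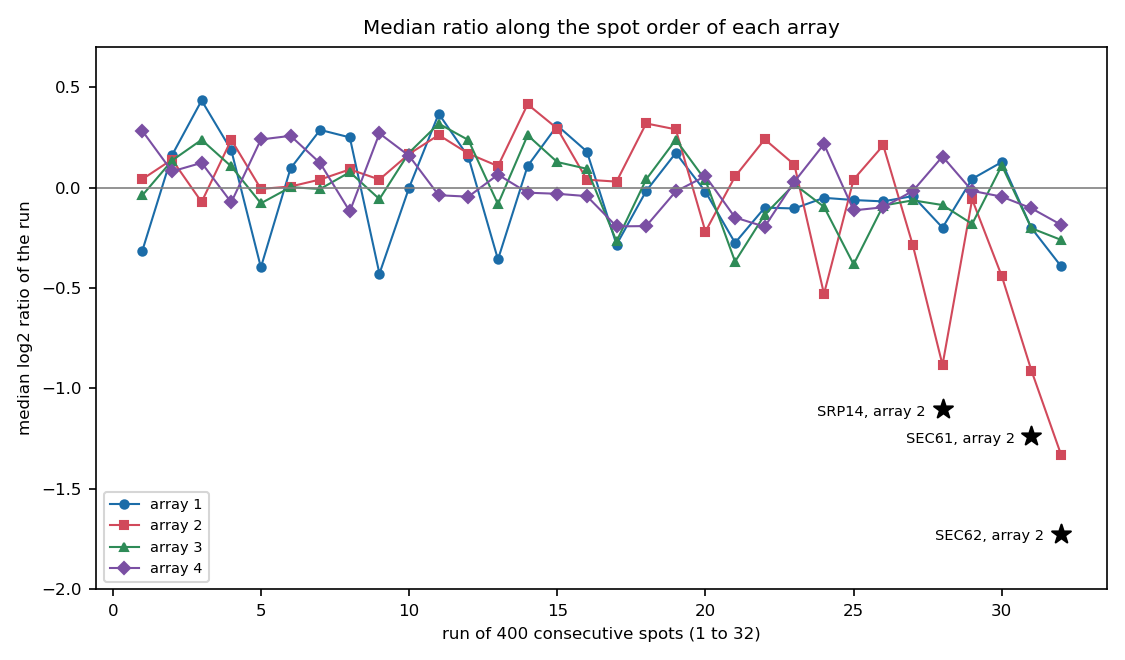
Median log2 ratio of each run of 400 consecutive spots (vertical axis) against the order of the runs (horizontal axis) on the 4 arrays, with the values of SRP14, SEC61 and SEC62 on array 2 as stars. Array 2 falls to -0.88, -0.91 and -1.33 in runs 28, 31 and 32, where these genes lie, while the other arrays stay between -0.43 and 0.43.

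Centring each run instead of each array changed the size of those genes. SEC62 went to -0.24, -0.39, -0.36 and -0.36 on arrays 1 to 4, with a mean of -0.34 in place of -0.88, and still passed with the spot filter (adjusted p = 0.0384). SEC61 went from -0.55 to -0.19, SIL1 from -0.44 to -0.082 and CWH41 from -0.50 to 0.041, none of which passed. SRP14 went to -0.40 and passed (adjusted p = 0.0424). HAC1 went to 0.71, 0.25, 0.64 and 0.37, above 0 on all 4 arrays, and rose to 0.49 (adjusted p = 0.0245). ROT2 went to 0.42 and passed (adjusted p = 0.0496), while IRE1 at 0.44 (adjusted p = 0.0679) and SRP21 at -0.40 (adjusted p = 0.0676) no longer did. SEC63 went to 0.59, 0.37, 0.49 and 0.41 and passed (adjusted p = 0.0175). SEC66 went from -0.24 to -0.41 and passed (adjusted p = 0.0216). SBH2 hardly moved, at -0.81 (adjusted p = 0.00783), and CUE1 at -0.56 passed with the filter (adjusted p = 0.00921) and in the test of genes on 4 arrays (adjusted p = 0.0474), where it was the only listed gene to do so and 4.78% of all genes passed. With runs centred and the spot filter, 11 of 28 listed genes passed, where 21.9% of all genes passed, 8 lower (background 15.5%) and 3 higher (background 6.42%).

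Gene length moved with the ratios too. Over the 28 genes of the filtered test the mean ratio and the span of the gene had a rank correlation of 0.70, and over all 2801 genes with a span it was 0.37. The genes share the same 4 arrays, and no p is given. The 8 listed genes of up to 600 bp had a median of -0.58, and 6 of them fell. All 493 genes of up to 600 bp in that test had a median of -0.36, and 35.5% of them fell. The 9 listed genes over 1800 bp had a median of 0.17, with 2 that rose, beside a median of 0.070 and a share of 7.01% that rose among all 856 genes of that span. SSS1, SBH1 and SBH2 span 243, 249 and 267 bp and SEC63 and IRE1 1992 and 3348 bp.

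**Figure D3:**
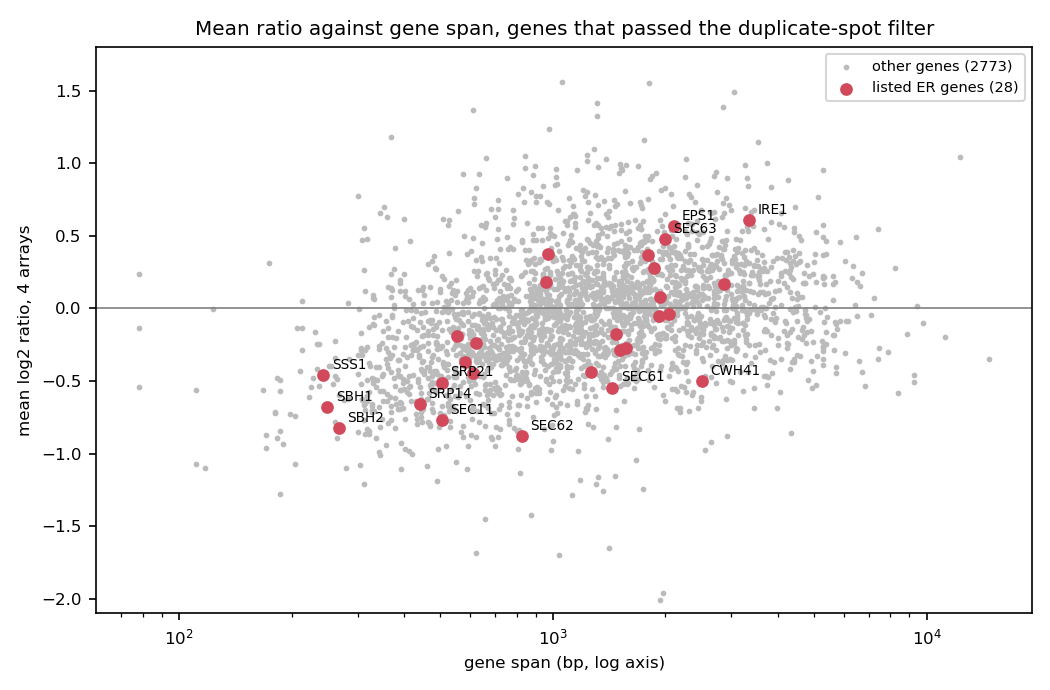
Mean log2 ratio over 4 arrays (vertical axis) against gene span in bp (horizontal log axis) for genes that passed the spot filter, with the 28 listed ER genes in red and all others in grey. The short channel, SRP and peptidase genes lie low among many other low short genes, and IRE1 and SEC63 lie high at long spans.

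With a smooth trend on gene length removed from each array, 0 of 28 listed genes passed with the spot filter, where 8% of all genes passed (12 of the 28, or 42.9%, had an unadjusted p under 0.05 in limma, and 30.8% of all genes). After the removal the rank correlation of mean ratio with span was still 0.37 over the 28 listed genes, and 0.0051 over all genes. SSS1 went from -0.46 to 0.053, SBH1 from -0.68 to -0.17 and SBH2 from -0.82 to -0.34. SRP14 went from -0.66 to -0.32 (adjusted p = 0.16), SRP21 from -0.51 to -0.22 (adjusted p = 0.27) and SEC11 from -0.77 to -0.48 (adjusted p = 0.0688). The means of SEC62 (-0.88 to -0.75, adjusted p = 0.0633), SEC63 (0.48 to 0.42, adjusted p = 0.0602) and IRE1 (0.61 to 0.53, adjusted p = 0.08) moved less, and none of the 3 passed. With spots kept apart and the trend removed, 6 of 39 passed, where 10.7% of all genes passed, and all 6 were lower (background 7.73%): PDI1 at -0.39 (adjusted p = 0.0149), SEC62, SEC11, SIL1, SEC61 and SBH2. With the spot filter and the trend removed, PDI1 stood at -0.31 and did not pass (adjusted p = 0.11). SEC62, SIL1 and SEC61 lie in the low runs of array 2. With runs centred and the trend removed as well, 2 of 28 passed the filtered test, where 13.4% of all genes passed, and both were higher (background 7.07%): SEC63 at 0.41 (adjusted p = 0.0327) and HAC1 at 0.57 (adjusted p = 0.0236). The combined settings were chosen after the other results had been seen.

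**Figure D4:**
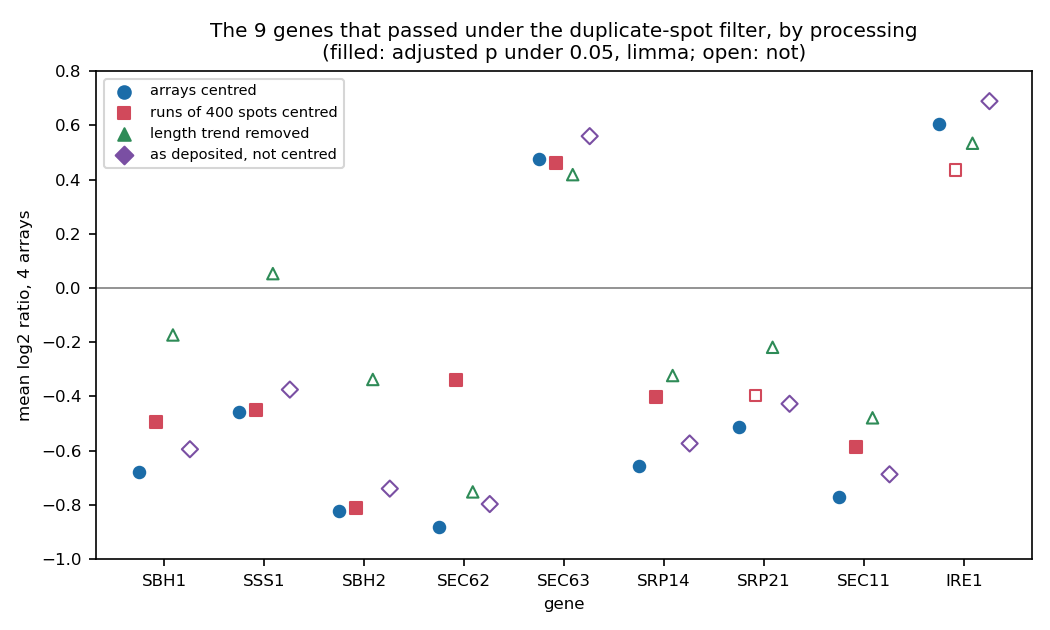
Mean log2 ratio over 4 arrays (vertical axis) of the 9 genes that passed with the spot filter, under 4 ways of processing, with filled symbols where the adjusted p was under 0.05. All 9 are filled with arrays centred, 7 with runs of 400 spots centred, and none with the length trend removed or without centring.

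The channel term of a model with both coefficients did not pass for any of the 39 listed genes (limma, smallest adjusted p = 0.872). The share of all genes that passed for this term is not given here. In the same model the treatment term passed for 0% of all 4481 genes. A term that did not pass here therefore does not show the absence of a channel effect. For SEC63 the channel term was 0.019 beside a treatment mean of 0.48, and for SBH2 0.14 beside -0.82.

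Other genes of ER entry and folding, 39 chosen for their function, were tested in the same way. Of these, 38 had spots here, 35 were measured on 4 arrays and 0 passed there. In that test 11 of the 35, or 31.4%, had an unadjusted p under 0.05 (limma), against 27.5% of all genes. On all arrays 14 were below 0, where 21.3% of all genes were, and 3 above 0, where 20.4% were. With the spot filter 5 of 24 fell, where 11.5% of all genes did, and 0 rose. They were SND3 (-0.85 ± 0.23, adjusted p = 0.0125), of a further targeting route to the ER, GET3 (-0.56 ± 0.27), the ATPase that delivers tail-anchored proteins, OST2 (-0.56 ± 0.34) and OST4 (-0.56 ± 0.20), small subunits of oligosaccharyltransferase, and CPR5 (-0.52 ± 0.18), an ER cyclophilin. The 24 had a median of -0.15, the 28 listed genes one of -0.25 and all genes of the filtered test -0.061. OST4 and OST2 span 111 and 393 bp, and with the length trend removed SND3 alone still passed, at -0.59 (adjusted p = 0.0341). With spots kept apart 7 of the 35 passed, 6 lower (9.09% of all genes) and 1 higher (3.64%). They were SND3, CPR5, GET3, OST4, OST2, FPR2 (-0.33, adjusted p = 0.0455), an ER prolyl isomerase, and CDC48 (0.34, adjusted p = 0.0404), the ATPase that pulls ubiquitinated proteins out of the ER membrane.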

How the data were processed

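The deposited table of log2 ratios, 12800 spots on 4 two-channel arrays, was used as the authors gave it. For scanning, filtering, dyes, normalization and the numerator channel, the steps are not stated in the labels or files used here. The top log2 value of 16.61, the log2 of 100000, was taken as a placeholder and set to missing. Each array was centred on its spot median, and arrays with treated RNA in channel 1 were multiplied by -1. Spots were named through the platform annotation, with symbols and spans from the RefSeq gene table (assembly R64), and averaged per gene. A test of each ratio against 0 used R 4.3.3 and limma 3.58.1 (lmFit, eBayes; Benjamini-Hochberg over all genes; threshold 0.05), for 4481 genes on 4 arrays and for 2804 genes with at least 2 spots within 1 log2 unit on each array. Another fit kept the spots apart (duplicateCorrelation). The length trend was a lowess fit (span 0.4) on log span per array. The fits for genes on 4 arrays and with the spot filter, and the length trend, were tested on simulated data. The fit with spots kept apart was not. Values simulated for the fits were independent draws for each gene and array, with no shift along the spot order and no channel effect. They therefore cannot show whether the calls on these data are sound.

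The genes and lists were chosen with earlier results of these data known. All listed genes are given. Most genes described array by array had 4 arrays on the same side of 0 and a mean over 0.5 in size, or passed a test. Others were KAR2, PDI1, SEC61, HAC1 or IRE1, or showed arrays that disagreed. SSH1 and UBC7 met none of these conditions, and SEC66 and SEC72 passed a test but are given by mean. The genes with disagreeing arrays were chosen after the values were seen. Spot brightness was not analysed here, and the number of arrays limits the precision. Alternatives were other centring, the length trend, channel order, each array left out, the placeholder kept, genes on 3 arrays and other handling of spots.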

Additional observations from a re-analysis of the deposited data

Results flagged for a closer look

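In 9 of the 39 listed genes with 4 values, 1 array stood apart from the rest by Dixon's test, where chance gives about 1 in 20, or 1.95 genes. That is 23.1% of the listed genes, and the same test marked 8.68% of all 4481 genes on 4 arrays. Whether the listed genes differ in this from other genes was not tested. On array 2 these were SEC62 at -1.73, SRP14 at -1.10, SIL1 at -0.87 and HAC1 at -0.28, against means of -0.60, -0.51, -0.29 and 0.60 on the other arrays. All lie in runs of spots with a low median on array 2, and with runs centred their values there were -0.39, -0.22, 0.042 and 0.25. On array 1 they were HRD3 at 4.89, SPC1 at 1.92 and the gene for the beta subunit of the SRP receptor (locus YKL154W) at 1.37, against means of 0.34, -0.38 and -0.33. HRD3 and YKL154W had a single measured spot there, and the spots of SPC1 read 3.08 and 0.75. On array 4 SSS1 at -0.21 and SEC72 at -0.10 stood nearer 0 than their other arrays (means -0.54 and -0.46).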

How the results depend on the processing

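With each array left out in turn, the test of genes on 4 arrays called 0 listed genes in each case (limma, unadjusted p under 0.05 for 12, 11, 8 and 12, and 26.1%, 20.3%, 17% and 21.8% of all genes), and the median ran from -0.20 (without array 1) to -0.040. Runs of 400 spots centred called 1 (4.78% of all genes), spots kept apart 9 (12.7%), and spots apart without the length trend 6 (10.7%). Without centring its median was 0.030 (all genes 0.11). With the spot filter there were 9 calls, where 16.8% of all genes passed. They became 4 without array 1 (9.49% of all genes) and 3 without array 2 (7.51%). Without array 3 or array 4 there were 0 (0% of all genes), so the counts with an array left out ran from 0 to 4. The test has fewer residual degrees of freedom there, and unadjusted p (limma) lay under 0.05 for 16, 13, 13 and 15 listed genes (32%, 28.2%, 25.2% and 29.9% of all genes). In that test 0 listed genes passed without centring (median -0.17), where 2.1% of all genes passed. Without centring 5 listed genes and 12.6% of all genes had an unadjusted p under 0.05 (limma). Without the length trend 0 listed genes passed (median -0.11), where 8% of all genes passed. Runs centred gave a median of -0.15, and with the trend also removed 2 calls (13.4% of all genes) and -0.076. The cause was not tested. The direction of single genes turned as follows. Without centring SRP72 was 0.030, KAR2 0.043, LHS1 0.064 and DER1 0.057. With runs centred JEM1 was -0.034, CWH41 0.041 and DER1 0.026. Without the length trend JEM1 was -0.059, DER1 0.10 and, with the spot filter, SSS1 0.053. With each array left out in turn the gene for the SRP receptor's beta subunit ranged from -0.33 to 0.31, SPC1 from -0.38 to 0.43, KAR2 from -0.11 to 0.041, LHS1 from -0.57 to 0.44, CNE1 from -0.60 to 0.37 and DER1 from -0.30 to 0.17. Channel order as a coefficient, the placeholder kept and genes on at least 3 arrays changed no count of calls by over 1.5 times. Spots within 0.5 log2 units left 22 listed genes, of which 8 passed, where 21.8% of all genes passed. Of the 8, 7 were lower and 1 higher in place of 2. IRE1 and SRP14 were not among the 22, so the 7 lower genes were not all the same as before. No paired analysis was possible because all 4 arrays form 1 group and each already holds both RNAs.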
